A study of Mus musculus with 16 samples.

Results

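The protein folding and translocation genes of the endoplasmic reticulum (ER), together with the genes of the unfolded protein response, were followed in CD4+ T cells that had met transient, persistent or no antigen. The genes came from a list of 39 symbols, and for each gene the probe set with the highest mean log2(intensity + 1) over the 16 arrays was used. A value was obtained for 38 of the 39 among 18193 measured genes. The only probe set of Sec61g lists 3 gene symbols and was not used. By role the 38 genes are 11 chaperones and cofactors, 4 disulfide isomerases, 8 stress sensors and effectors, 5 genes of ER-associated degradation and 10 genes of the translocon and signal peptidase.

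The T cells were lymph node cells of AND T cell receptor-transgenic mice carrying the congenic marker CD90.1, on the B10.BR background. Moth cytochrome c supplies the peptide that the AND receptor binds. The cells were injected on day 0 into recipients 6 to 8 weeks old and recovered from them 60 hours later by sorting CD4+CD90.1+ cells. Recipients with antigen carried the Ii-rTA and TIM transgenes, which place the peptide under doxycycline control. After transient antigen, doxycycline ran from day -1 to day 0, and under persistent antigen it ran from day -1 to day 3. Recipients without antigen carried TIM alone, and their labels read no doxycycline while the treatment text of 3 of those 5 arrays gives it from day -1 to day 3. On day -1 each recipient received FGK45.5, an agonist antibody to CD40 that activates dendritic cells (FGK below), or PBS. There were 2 FGK and 3 PBS arrays without antigen, 2 FGK and 3 PBS arrays after transient antigen, and 3 FGK and 3 PBS arrays under persistent antigen. The labels do not say whether an array stands for 1 animal or a pool, so p-values cover only array-to-array spread, which may be technical.

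Proteins bound for the cell surface or for secretion enter the ER through the Sec61 channel, lose their signal peptide to the signal peptidase and fold with the help of chaperones and disulfide isomerases. Chains that fail to fold are returned to the cytosol for destruction. When unfolded protein accumulates, 3 sensors in the ER membrane respond: IRE1 (Ern1) splices the mRNA of Xbp1, PERK (Eif2ak3) slows translation and raises ATF4, and ATF6 is cut to release a transcription factor. In lymphocytes this machinery is best known from plasma cells, which secrete antibody, and activated T cells enlarge their ER as they begin to divide and to make cytokines.

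The deposited intensities had array medians of 18.2 to 21.3 and array means of 83.5 to 120.6, the lowest mean in the second no-antigen FGK array. Replicate number set much of the spread: once the group means were removed, like-numbered arrays of different groups correlated at 0.481 to 0.806 (36 pairs). Over the 70 pairs with different numbers the range was -0.806 to 0.598, with a median of -0.525. Removing group means itself pulls these correlations below 0. Because like-numbered arrays deviated together, each difference was fitted a second time with the replicate number as a block, and both fits are given. The fit without the block called 1 of the 38 genes in each of 2 comparisons, and most calls below rest on the block. A gene was called where its p-value, adjusted over all genes, was under 0.05. Where groups are said not to overlap, the share of all genes that did likewise was not counted. Groups this small can separate without a difference. All differences are on the log2(intensity + 1) scale, which understates changes of dim genes, and ± marks 1 SE of a difference or 1 SD of a group of arrays. All 11 measured T cell identity genes were above the median probe set on average. Cd79a (B cells, 3.13 to 3.93), Tnfrsf17 (plasma cells, 2.81 to 3.30) and Cd8b1 (CD8 T cells, 3.02 to 3.97) were below it (4.37) in every array, although 5 of 11 B cell genes and 7 of 10 plasma cell genes were above it on average. Cd8a, the other of the 2 CD8 T cell genes, was above it in every array (4.90 to 5.83), as were 8 of 14 dendritic cell and macrophage genes on average. In bulk RNA of this kind, a change per cell and a change in the share of cells that express a gene cannot be told apart.

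**Figure D1:**
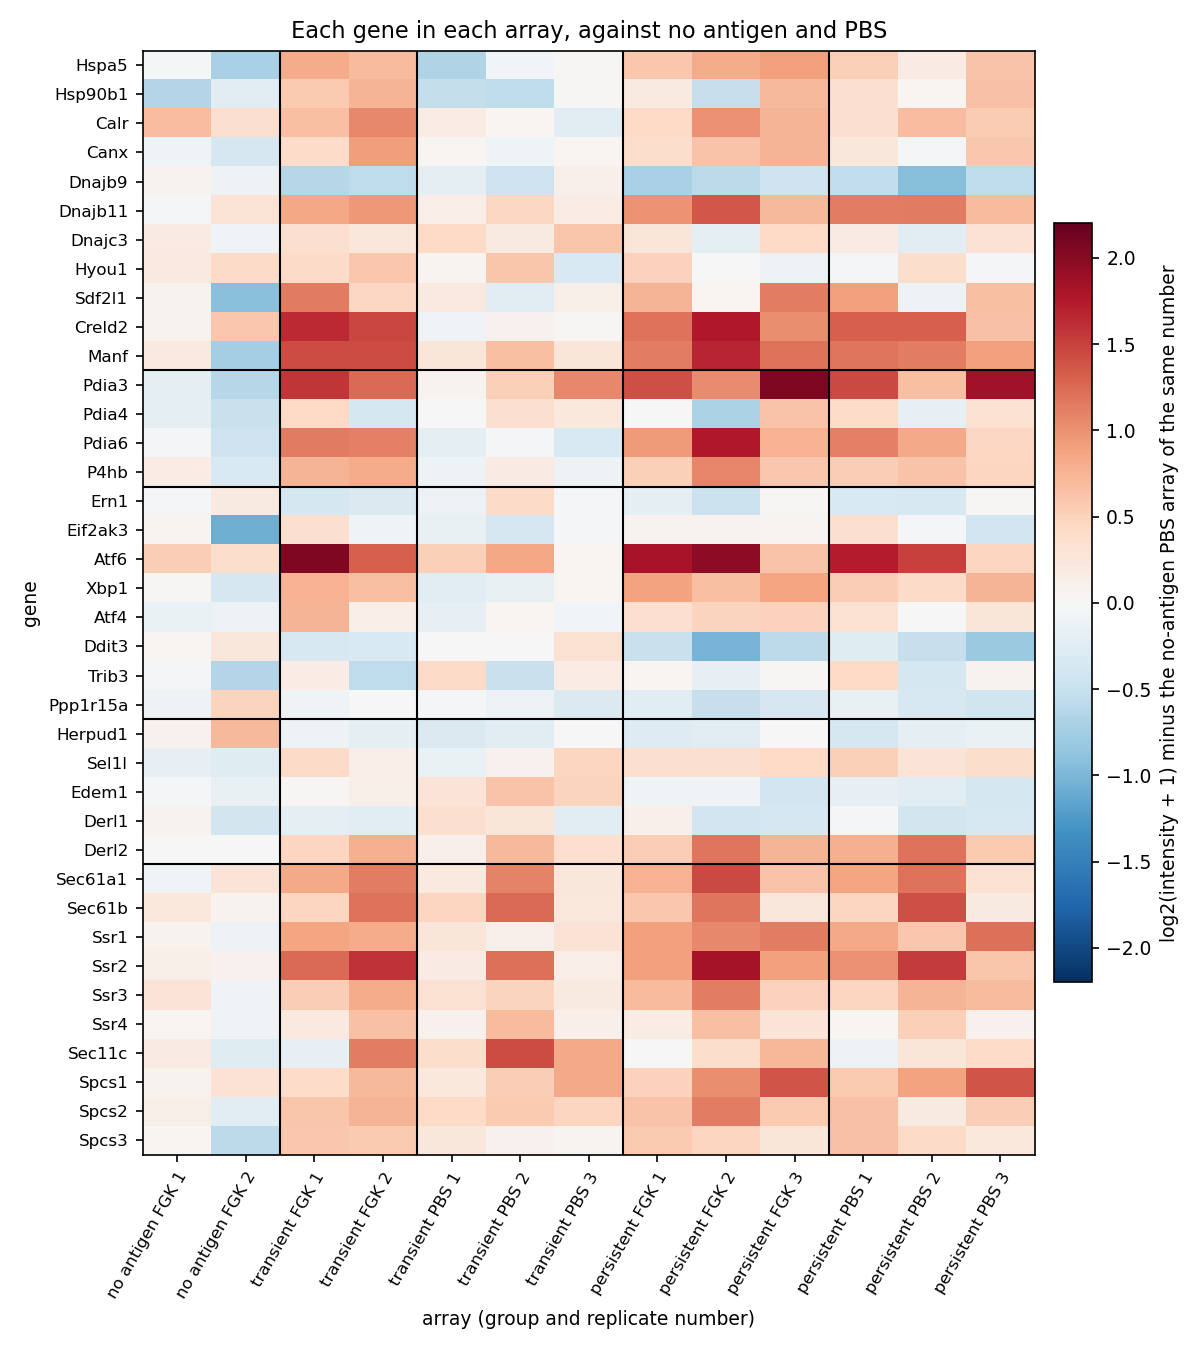
Heat map of the 38 ER genes (rows, grouped by role from chaperones at the top to translocon and signal peptidase at the bottom) in 13 arrays (columns), as log2(intensity + 1) minus the no-antigen PBS array of the same replicate number. Red is higher and blue lower. The transient FGK and all persistent columns are red for Creld2, Manf and Pdia3, and the transient PBS columns are mixed, with Pdia3 red in number 3.

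Among the chaperones, Hspa5, Hsp90b1, Sdf2l1, Creld2 and Manf were each higher than without antigen after transient antigen with FGK, by more than with PBS, while Dnajb9 was lower under persistent antigen. Hspa5 encodes BiP, the Hsp70 of the ER lumen that binds unfolded chains and holds the stress sensors inactive. Its log2 values were 10.60 and 9.48 with FGK and 10.63, 10.20 and 9.76 with PBS without antigen, 11.45 and 10.90 with FGK and 9.97, 10.14 and 9.78 with PBS after transient antigen, and 11.22, 11.01 and 10.66 with FGK and 11.16, 10.38 and 10.39 with PBS under persistent antigen. The transient FGK arrays lay above all 3 transient PBS arrays and above both no-antigen FGK arrays. FGK minus PBS after transient antigen was 1.06 ± 0.21 (adjusted p = 0.0026 with the block, 0.20 without it), and transient minus no antigen was 1.14 ± 0.23 with FGK (adjusted p = 0.0020) and -0.23 ± 0.19 with PBS (adjusted p = 0.63).

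Hsp90b1 encodes GRP94, the Hsp90 of the ER, which folds integrins and Toll-like receptors. With FGK it read 6.87 and 9.41 without antigen, 8.09 and 10.40 after transient and 7.72, 9.16 and 6.43 under persistent antigen. With PBS it read 7.52, 9.66 and 5.71 without antigen, 6.99, 9.11 and 5.73 after transient and 7.87, 9.71 and 6.35 under persistent antigen. The groups overlapped throughout because the level followed the replicate number, with number 2 the highest in every group and number 3 the lowest in each group that had one. Set against the array of the same number, transient FGK exceeded transient PBS in 2 of 2 pairs, and the difference was 1.16 ± 0.23 (adjusted p = 0.0025 with the block, 0.83 without it). A second probe set of Hsp90b1 gave 1.15 for the same difference.

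The promoters of these genes are shown because they share a sequence that few others hold. The ER stress response element, CCAAT and CCACG with 9 bases between them, binds NF-Y at its CCAAT part and ATF6 or XBP1 at its CCACG part. RefSeq promoter windows on GRCm38.p6, from 250 bases before to 50 bases after the gene start, were found for 31 of the 39 symbols. An exact match on either strand was found for 7 of these 31 genes (22.6%), against 37 of all 27025 genes with a window (0.137%). The 7 were 6 of the 9 chaperones with a window and 1 of 4 isomerases. There was none among 7 stress sensors and effectors, 4 degradation genes and 7 translocon and signal peptidase genes. The elements follow, read on the strand on which CCAAT comes first, with CCAAT and CCACG in capitals. They lie at chr2:34772025-34772043 (Hspa5), chr10:86705638-86705656 and chr10:86705533-86705551 (Hsp90b1), chr8:84847075-84847093 (Calr), chr11:50325800-50325818 (Canx), chr14:118937827-118937845 (Dnajc3), chr15:88819520-88819538 (Creld2) and chr12:17266491-17266509 (Pdia6).
Hspa5: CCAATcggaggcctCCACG
Hsp90b1, far element: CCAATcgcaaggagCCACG
Hsp90b1, near element: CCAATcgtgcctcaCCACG
Calr: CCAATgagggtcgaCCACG
Canx: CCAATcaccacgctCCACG
Dnajc3: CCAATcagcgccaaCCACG
Creld2: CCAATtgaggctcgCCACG
Pdia6: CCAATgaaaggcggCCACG

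The 250 bases before the gene start are given for the 4 of these genes whose response to transient antigen differed with FGK, read on the gene's strand, with the letters of the element, or their reverse complement (ATTGG and CGTGG), in capitals. The windows are chr2:34771840-34772089 on the plus strand (Hspa5), chr10:86705445-86705694 on the minus strand (Hsp90b1), chr15:88819396-88819645 on the plus strand (Creld2) and chr12:17266339-17266588 on the plus strand (Pdia6). In Hspa5 the element ends 47 bases before the start, in Pdia6 80 bases, and in Creld2, where it lies in the opposite direction, 108 bases. Hsp90b1 holds 2 elements in opposite directions, 89 to 107 and 194 to 212 bases before its start.
Hspa5: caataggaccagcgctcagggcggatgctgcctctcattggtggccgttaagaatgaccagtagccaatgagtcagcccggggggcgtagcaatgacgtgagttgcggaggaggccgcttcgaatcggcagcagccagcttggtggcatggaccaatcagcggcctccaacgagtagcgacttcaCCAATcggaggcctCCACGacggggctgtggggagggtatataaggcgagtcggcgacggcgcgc
Hsp90b1: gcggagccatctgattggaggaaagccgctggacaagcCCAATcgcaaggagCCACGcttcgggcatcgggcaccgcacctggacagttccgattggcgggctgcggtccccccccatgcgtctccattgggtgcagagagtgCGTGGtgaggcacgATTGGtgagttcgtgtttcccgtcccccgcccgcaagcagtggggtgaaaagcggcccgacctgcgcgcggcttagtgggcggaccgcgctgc
Creld2: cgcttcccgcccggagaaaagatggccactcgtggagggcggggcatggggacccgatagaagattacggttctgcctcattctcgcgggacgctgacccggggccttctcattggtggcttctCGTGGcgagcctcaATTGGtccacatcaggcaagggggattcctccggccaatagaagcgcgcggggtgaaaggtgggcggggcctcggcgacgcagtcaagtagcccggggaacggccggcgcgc
Pdia6: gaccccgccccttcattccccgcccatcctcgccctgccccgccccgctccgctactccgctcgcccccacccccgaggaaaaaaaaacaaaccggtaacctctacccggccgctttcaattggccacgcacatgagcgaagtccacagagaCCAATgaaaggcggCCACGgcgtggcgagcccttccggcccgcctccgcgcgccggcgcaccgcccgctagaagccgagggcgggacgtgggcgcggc

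Creld2, an ER-resident protein that rises when folding is disturbed, had its transient FGK and persistent arrays apart from the rest. Its log2 values were 6.61 and 6.52 with FGK and 6.54, 5.92 and 6.70 with PBS without antigen, 8.19 and 7.39 with FGK and 6.46, 6.02 and 6.72 with PBS after transient antigen, and 7.74, 7.69 and 7.73 with FGK and 7.85, 7.23 and 7.35 with PBS under persistent antigen. Both transient FGK arrays and all 6 persistent arrays lay above all 8 of the other arrays. After transient antigen FGK exceeded PBS by 1.46 ± 0.22, a fold of 2.74 (adjusted p = 0.00021 with the block, 0.068 without it). Against no antigen, persistent antigen differed by 1.09 ± 0.22 with FGK (adjusted p = 0.0014) and 1.09 ± 0.19 with PBS (adjusted p = 0.00033). Manf, a BiP-binding ER protein that can also be secreted, read 7.22 and 5.65 with FGK and 7.01, 6.39 and 6.71 with PBS without antigen, 8.44 and 7.82 with FGK and 7.28, 7.06 and 6.97 with PBS after transient antigen, and 8.13, 8.07 and 7.90 with FGK and 8.19, 7.52 and 7.61 with PBS under persistent antigen. The 2 transient FGK arrays were above every transient PBS array, by 0.97 ± 0.24 in the fit with the block (adjusted p = 0.012). Persistent minus no antigen with FGK, 1.66 ± 0.24 with the block, was the only called difference of a chaperone without the block (1.60 ± 0.39, adjusted p = 0.047). Sdf2l1, a partner of the ER J-domain proteins, was dim. With FGK it read 4.14 and 3.55 without antigen, 5.22 and 4.92 after transient and 4.81, 4.52 and 5.35 under persistent antigen, and with PBS it read 4.07, 4.47 and 4.23 without antigen, 4.28, 4.22 and 4.36 after transient and 4.98, 4.35 and 4.90 under persistent antigen. Transient FGK did not overlap transient PBS (difference 0.86 ± 0.22, adjusted p = 0.013 with the block), and persistent FGK did not overlap no-antigen FGK (0.97 ± 0.22, adjusted p = 0.0036).

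The J-domain proteins that bring substrates to BiP moved in opposite directions. Dnajb11 (ERdj3), which binds unfolded chains together with BiP, read 8.46 and 7.41 with FGK and 8.49, 7.11 and 8.35 with PBS without antigen, 9.34 and 8.06 with FGK and 8.63, 7.57 and 8.51 with PBS after transient antigen, and 9.48, 8.48 and 9.06 with FGK and 9.61, 8.25 and 9.04 with PBS under persistent antigen. It was higher under persistent than without antigen by 0.98 with each treatment (± 0.18 with FGK, adjusted p = 0.00074, and ± 0.16 with PBS, adjusted p = 0.00015, both with the block). Dnajb9 (ERdj4), which brings BiP to IRE1, read 7.06 and 6.97 with FGK and 6.99, 7.09 and 6.66 with PBS without antigen, 6.36 and 6.53 with FGK and 6.79, 6.63 and 6.77 with PBS after transient antigen, and 6.28, 6.51 and 6.20 with FGK and 6.44, 6.16 and 6.10 with PBS under persistent antigen. All 6 persistent arrays were below all 5 no-antigen arrays, by -0.63 ± 0.18 with FGK (adjusted p = 0.021) and -0.68 ± 0.16 with PBS (adjusted p = 0.0045). In persistent against no antigen with FGK, 6 of the 11 chaperones were called higher and Dnajb9 alone lower, where 16.4% of all genes were called. The lectin chaperone Canx, which holds glycoproteins until they fold, read 11.15 and 9.12 with FGK and 11.24, 9.49 and 10.66 with PBS without antigen, 11.64 and 10.41 with FGK and 11.29, 9.39 and 10.71 with PBS after transient antigen, and 11.63, 10.12 and 11.41 with FGK and 11.49, 9.45 and 11.26 with PBS under persistent antigen. Its groups overlapped, with replicate number 2 lowest in all 6 groups. FGK minus PBS after transient antigen was 0.73 ± 0.19 (adjusted p = 0.016 with the block, 1 without it). Calr, the soluble counterpart of Canx, ranged over 7.59 to 9.63 and was called for the same difference (0.84 ± 0.20, adjusted p = 0.0092). Dnajc3 (6.63 to 7.87), which helps BiP and restrains PERK, and Hyou1 (6.07 to 6.78), a nucleotide exchange factor of BiP, were called in no comparison by either fit. Their largest blocked differences from no antigen were 0.41 ± 0.16 for Dnajc3 (transient, PBS, adjusted p = 0.19) and 0.19 ± 0.24 for Hyou1 (transient, FGK, adjusted p = 0.69). With FGK the 3 other Dnajc3 probe sets above the median gave larger values, 0.87, 0.62 and 0.55 for transient and 0.86, 0.83 and 0.43 for persistent against no antigen.

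Of the 4 disulfide isomerases, Pdia3, Pdia6 and P4hb were called in the same 5 of the 9 comparisons, always higher, and Pdia4 in none. Pdia3 (ERp57), which oxidises glycoproteins held by calnexin and calreticulin and sits in the class I peptide-loading complex, read 7.20 and 6.99 with FGK and 7.40, 7.62 and 6.10 with PBS without antigen, 8.98 and 8.87 with FGK and 7.48, 8.14 and 7.15 with PBS after transient antigen, and 8.82, 8.66 and 8.15 with FGK and 8.86, 8.28 and 7.95 with PBS under persistent antigen. The transient FGK values were the highest of any group and did not overlap transient PBS. The difference between FGK and PBS there was 1.07 ± 0.25 (adjusted p = 0.0069 with the block, 0.23 without it). Its persistent arrays exceeded those without antigen by 1.72 ± 0.25 with FGK (adjusted p = 5.8e-05) and 1.32 ± 0.21 with PBS (adjusted p = 0.00017). Another Pdia3 probe set above the median gave smaller values, 0.43 with FGK and 0.59 with PBS, and 0.19 for FGK minus PBS after transient antigen. Pdia6 (P5), which also limits IRE1 signalling, read 9.30 and 7.67 without antigen, 10.46 and 9.23 after transient and 10.25, 9.89 and 9.99 under persistent antigen with FGK. With PBS the Pdia6 values were 9.32, 8.12 and 9.22 without antigen, 9.13, 8.07 and 8.89 after transient and 10.43, 8.95 and 9.68 under persistent antigen. After transient antigen FGK exceeded PBS by 1.20 ± 0.23 with no overlap (adjusted p = 0.0017 with the block, 0.60 without it). A second, dimmer Pdia6 probe set gave 0.72 there, and 0.25 against 0.80 for persistent minus no antigen with PBS. P4hb, the founding protein disulfide isomerase and also a subunit of prolyl 4-hydroxylase, read 10.07 and 8.81 with FGK and 9.90, 9.14 and 9.78 with PBS without antigen, 10.65 and 9.96 with FGK and 9.78, 9.32 and 9.67 with PBS after transient antigen, and 10.43, 10.21 and 10.38 with FGK and 10.45, 9.77 and 10.26 with PBS under persistent antigen. It too showed no overlap after transient antigen, with FGK above PBS by 0.76 ± 0.19 (adjusted p = 0.012 with the block, 0.66 without it). Pdia4 (ERp72) stayed within 4.06 to 5.17, and its largest blocked difference in the 9 comparisons was 0.36 ± 0.27 (transient against no antigen with FGK, adjusted p = 0.44).

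**Figure D2:**
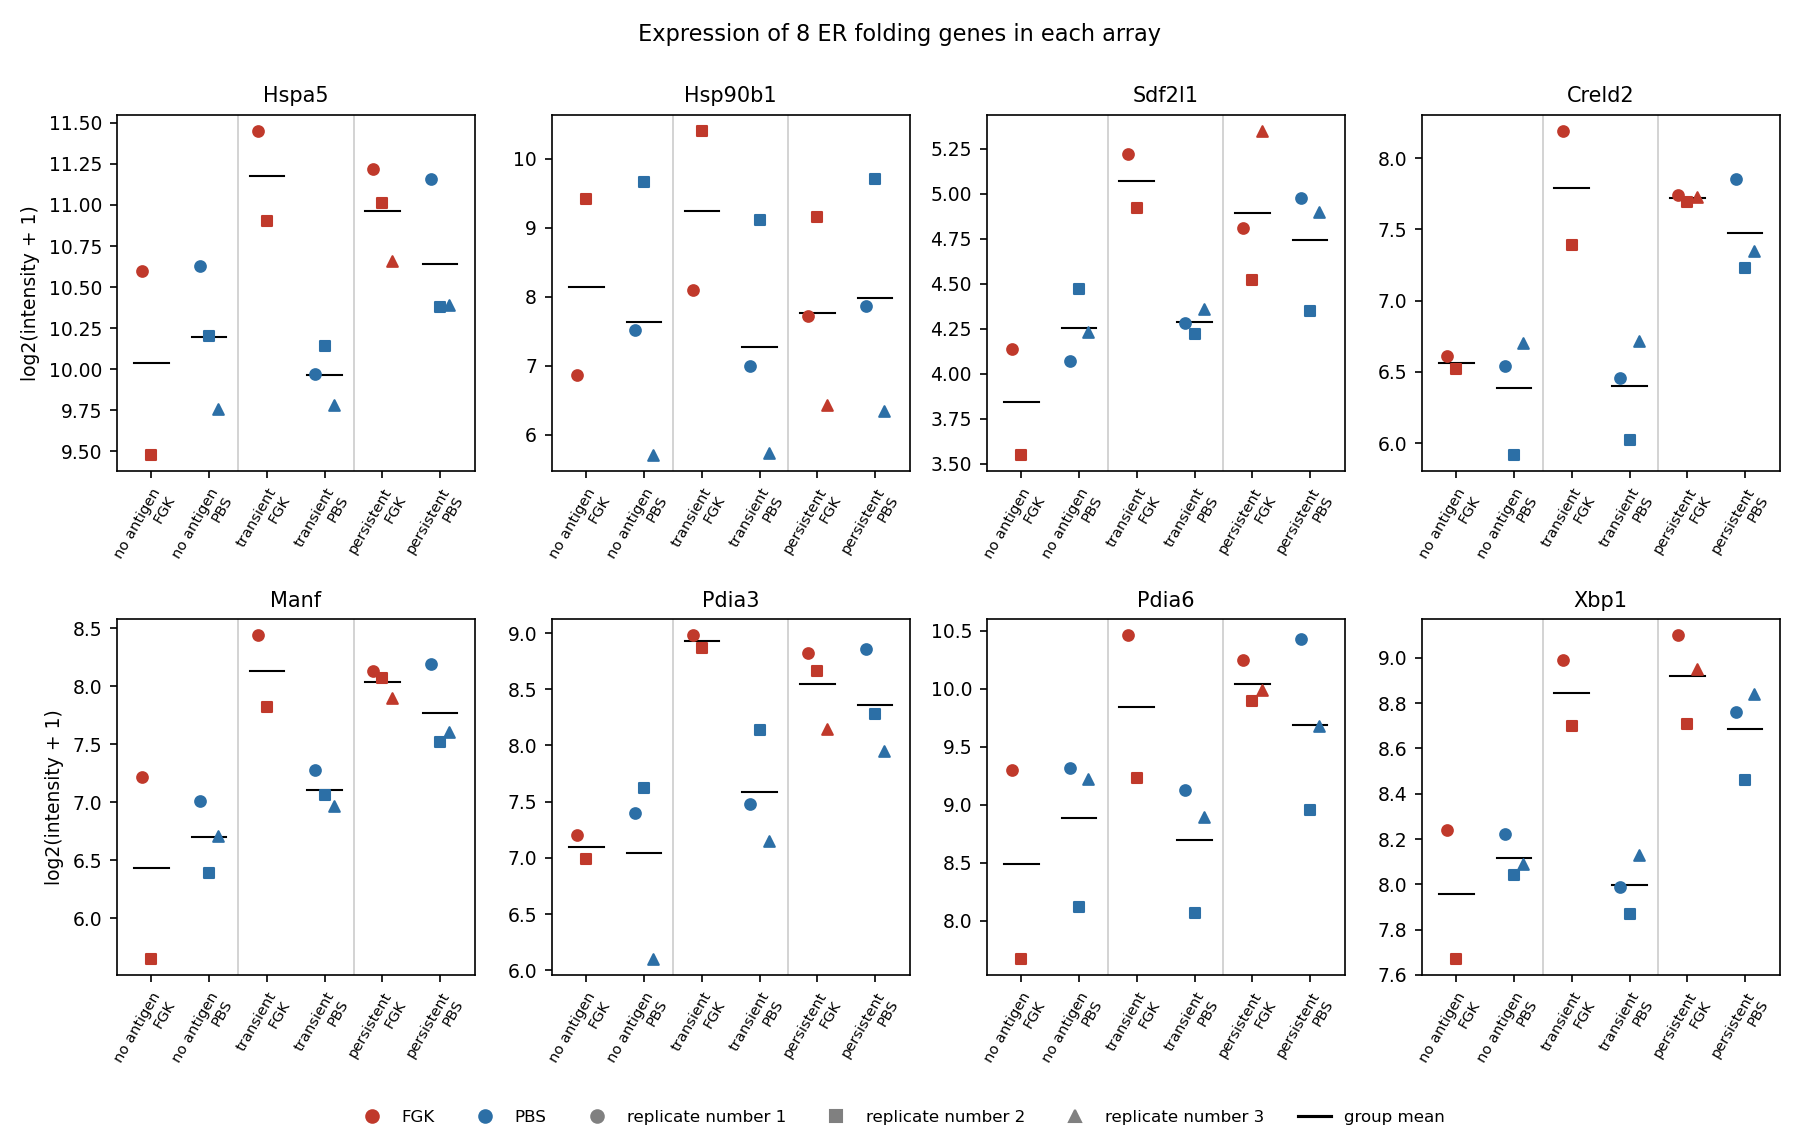
Level of 8 ER genes in each array, as log2(intensity + 1) on the vertical axes, by antigen regime and treatment (FGK red, PBS blue). Marker shape gives the replicate number and bars the group mean. After transient antigen the FGK arrays lie above the PBS arrays for Hspa5, Sdf2l1, Creld2, Manf, Pdia3, Pdia6 and Xbp1, and Hsp90b1 is dominated by replicate number. The 8 genes are those called in the test of FGK against PBS responses to transient antigen, which used these same arrays. How many of all genes separate in this way was not counted.

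The stress sensors and effectors split. In the probe sets used, Atf6 and Xbp1 rose with persistent antigen and with transient antigen plus FGK. Ern1, Eif2ak3, Trib3 and Ppp1r15a were called in no comparison by either fit. Atf6 read 4.70 and 4.40 with FGK and 4.16, 4.02 and 4.66 with PBS without antigen, 6.22 and 5.33 with FGK and 4.68, 4.87 and 4.70 with PBS after transient antigen, and 5.97, 5.98 and 5.29 with FGK and 5.89, 5.53 and 5.14 with PBS under persistent antigen. Both transient FGK and all persistent arrays were above all transient PBS and no-antigen arrays. Persistent minus no antigen with PBS was 1.24, a fold of 2.36, and it was called with the block (± 0.23, adjusted p = 0.00061) and without it (± 0.27, adjusted p = 0.020). FGK minus PBS after transient antigen was 0.96 ± 0.26 (adjusted p = 0.021 with the block, 0.17 without it). A second Atf6 probe set with a mean of 4.62 gave 0.51 and 0.09 for the same differences. With FGK it gave 0.15 against 1.26 for persistent and 0.10 against 1.23 for transient minus no antigen. For persistent minus transient antigen with PBS it gave 0.08 against 0.77. Xbp1 encodes the transcription factor whose mRNA IRE1 splices, and splicing was not measured here. Its probe set read 8.24 and 7.67 with FGK and 8.22, 8.04 and 8.09 with PBS without antigen, 8.99 and 8.70 with FGK and 7.99, 7.87 and 8.13 with PBS after transient antigen, and 9.10, 8.71 and 8.95 with FGK and 8.76, 8.46 and 8.84 with PBS under persistent antigen. The transient FGK and all persistent arrays lay above every other array. After transient antigen the FGK arrays were 0.88 ± 0.17 above PBS (adjusted p = 0.0019 with the block, 0.18 without it). Of 3 other Xbp1 probe sets above the median, 2 gave 0.79 and 0.73 and the dimmest gave -0.05.

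Atf4, the factor translated when PERK or a related kinase slows translation, read 7.33 and 7.37 with FGK and 7.47, 7.50 and 7.47 with PBS without antigen, 8.22 and 7.64 with FGK and 7.29, 7.54 and 7.41 with PBS after transient antigen, and 7.84, 7.99 and 7.98 with FGK and 7.81, 7.51 and 7.74 with PBS under persistent antigen. Both transient FGK arrays were above all transient PBS arrays, but the difference of 0.53 ± 0.19 was not called (adjusted p = 0.094 with the block). The persistent minus no-antigen difference of Atf4 with FGK was called only with the block (0.58 ± 0.19, adjusted p = 0.045), and another of its probe sets gave -0.17. Ddit3 (CHOP), a target of ATF4 that promotes death under lasting stress, read 6.07 and 6.67 with FGK and 6.03, 6.42 and 6.67 with PBS without antigen, 5.68 and 6.08 with FGK and 6.03, 6.42 and 7.0 with PBS after transient antigen, and 5.54, 5.40 and 6.10 with FGK and 5.77, 5.91 and 5.86 with PBS under persistent antigen. It was lower under persistent antigen, by -0.85 ± 0.21 against no antigen with FGK (adjusted p = 0.0068 with the block, 0.34 without it) and by -0.63 ± 0.18 against transient antigen with PBS (adjusted p = 0.027 with the block, 0.42 without it). Ern1 and Eif2ak3 encode the sensors IRE1 and PERK. Ern1 was 6.10 and 6.33 with FGK and 6.13, 6.14 and 6.02 with PBS without antigen, 5.75 and 5.82 with FGK and 6.0, 6.56 and 5.98 with PBS after transient antigen, and 5.92, 5.67 and 6.05 with FGK and 5.80, 5.78 and 6.05 with PBS under persistent antigen. Eif2ak3 was 6.81 and 5.26 with FGK and 6.75, 6.33 and 6.75 with PBS without antigen, 7.10 and 6.24 with FGK and 6.59, 5.96 and 6.70 with PBS after transient antigen, and 6.82, 6.41 and 6.81 with FGK and 7.11, 6.29 and 6.33 with PBS under persistent antigen. Their largest blocked differences from no antigen were -0.43 ± 0.21 for Ern1 (adjusted p = 0.22) and 0.64 ± 0.25 for Eif2ak3 (adjusted p = 0.11), both for transient antigen with FGK. Trib3 (3.51 to 4.26), a pseudokinase downstream of CHOP, was the only one of the 38 genes below the median probe set on average. Ppp1r15a (GADD34, 4.41 to 5.41), which restores translation, differed by -0.52 ± 0.19 between persistent and no antigen with FGK and was not called (adjusted p = 0.063).

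Degradation genes did not move as a group, and their medians changed sign with the scaling of the arrays. Derl2, a membrane protein of the export channel, read 7.93 and 6.76 with FGK and 7.92, 6.75 and 7.80 with PBS without antigen, 8.40 and 7.53 with FGK and 8.03, 7.47 and 8.17 with PBS after transient antigen, and 8.46, 7.93 and 8.54 with FGK and 8.70, 7.95 and 8.38 with PBS under persistent antigen. Under persistent antigen it was 0.86 above no antigen with each treatment (± 0.19 with FGK, adjusted p = 0.0036, and ± 0.17 with PBS, adjusted p = 0.0011, both with the block). A second Derl2 probe set of similar brightness gave 0.08 with FGK and -0.28 with PBS. Edem1, which recognises glycoproteins that fail to fold, read 7.59 and 7.77 with FGK and 7.61, 7.94 and 7.41 with PBS without antigen, 7.63 and 8.07 with FGK and 7.89, 8.56 and 7.90 with PBS after transient antigen, and 7.51, 7.87 and 6.99 with FGK and 7.43, 7.71 and 7.03 with PBS under persistent antigen. All 3 persistent PBS arrays were below every transient PBS array, and the difference was -0.73 ± 0.15 (adjusted p = 0.0036 with the block, 0.35 without it). Its other probe set gave -0.11. Sel1l, the adaptor of the ligase HRD1 (7.64 to 9.12), was called higher and Herpud1, an organiser of the same complex (6.32 to 7.48), lower under persistent antigen with FGK (0.56 ± 0.18, adjusted p = 0.042, and -0.64 ± 0.18, adjusted p = 0.021, with the block). The 7.48 of Herpud1 was the second no-antigen FGK array, and the first read 6.79. Another Herpud1 probe set gave -0.16, and other Sel1l probe sets above the median gave 0.60 and -0.05. Derl1 (8.90 to 10.53) was called in no comparison, and for persistent minus no antigen its 3 other probe sets above the median gave 0.35, 0.96 and 0.69 with FGK and 0.31, 1.03 and 0.23 with PBS.

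Of the 10 translocon and signal peptidase genes, 7 were higher under persistent than without antigen with FGK and 6 with PBS in the fit with the block, and 0 were called without it. Over all genes 10.9% and 9.93% were called higher there with the block. In all 4 comparisons with no antigen each of the 10 blocked differences was above 0. Of all 18193 genes, 8130 to 10227 were above 0 in these comparisons. The 4 comparisons share arrays, so they do not count separately. Under cyclic loess scaling without the block, the medians of the 10 in those comparisons were 0.38 to 0.52. Sec61a1, the pore of the channel, read 9.48 and 8.79 with FGK and 9.58, 8.50 and 10.26 with PBS without antigen, 10.42 and 9.62 with FGK and 9.80, 9.59 and 10.51 with PBS after transient antigen, and 10.34, 9.96 and 10.89 with FGK and 10.45, 9.69 and 10.60 with PBS under persistent antigen. Persistent minus no antigen was 0.98 ± 0.20 with FGK (adjusted p = 0.0018) and 0.80 ± 0.18 with PBS (adjusted p = 0.0029), both with the block. Of 4 other Sec61a1 probe sets above the median, 2 gave 0.94 and 0.90 with FGK and 0.61 and 0.59 with PBS. The other 2 gave 0.14 and -0.03 with FGK, and -0.43 and -0.02 with PBS. Ssr1 and Ssr2 belong to the TRAP complex, which helps chains into the channel. Ssr1 read 9.52 and 8.70 with FGK and 9.44, 8.83 and 8.87 with PBS without antigen, 10.31 and 9.65 with FGK and 9.71, 8.94 and 9.19 with PBS after transient antigen, and 10.35, 9.89 and 9.99 with FGK and 10.27, 9.42 and 10.08 with PBS under persistent antigen. It was called in 5 comparisons, among them FGK minus PBS after transient antigen (0.67 ± 0.17, adjusted p = 0.013 with the block, 0.65 without it). Ssr2 read 6.60 and 4.85 with FGK and 6.47, 4.76 and 6.47 with PBS without antigen, 7.72 and 6.35 with FGK and 6.65, 5.98 and 6.61 with PBS after transient antigen, and 7.37, 6.59 and 7.37 with FGK and 7.47, 6.30 and 7.08 with PBS under persistent antigen. Replicate number 2 was the lowest of Ssr2 in each group, and persistent minus no antigen was 1.24 ± 0.24 with FGK (adjusted p = 0.0010) and 1.05 ± 0.21 with PBS (adjusted p = 0.0013).

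The signal peptidase subunits Spcs1 and Spcs3 support the enzyme that removes signal peptides. Spcs1 read 9.72 and 8.83 with FGK and 9.64, 8.51 and 9.34 with PBS without antigen, 10.05 and 9.23 with FGK and 9.87, 9.05 and 10.18 with PBS after transient antigen, and 10.15, 9.53 and 10.72 with FGK and 10.22, 9.39 and 10.73 with PBS under persistent antigen. It was higher under persistent antigen by 0.62 ± 0.18 with FGK (adjusted p = 0.023) and 0.96 ± 0.16 with PBS (adjusted p = 0.00023), while of its other probe sets above the median 1 gave 0.71 and 0.49 and a dimmer 1 gave -0.40 and -0.06. Spcs3 read 10.32 and 9.12 with FGK and 10.27, 9.70 and 10.16 with PBS without antigen, 10.87 and 10.28 with FGK and 10.52, 9.80 and 10.22 with PBS after transient antigen, and 10.84, 10.17 and 10.43 with FGK and 10.92, 10.12 and 10.39 with PBS under persistent antigen. It was called with FGK alone, transient by 0.86 ± 0.18 (adjusted p = 0.0029) and persistent by 0.76 ± 0.17 (adjusted p = 0.0035), but whether FGK changed these differences was not shown (interaction 0.72 ± 0.23, adjusted p = 0.097, for transient). Spcs2 (7.82 to 9.94), Sec61b (8.05 to 9.50), the small subunit of the channel, and Ssr3 (8.45 to 10.13) were each called higher in 1 or 2 comparisons, all with no antigen. With FGK another Spcs2 probe set gave 0.07 against 0.84 for persistent and 0.38 against 0.73 for transient minus no antigen. For persistent minus no antigen another Ssr3 probe set gave 0.37 against 0.71 with FGK and 0.29 against 0.63 with PBS. Ssr4 (7.49 to 8.88) and the catalytic subunit Sec11c (7.69 to 10) were called in no comparison. After transient antigen with PBS Sec11c read 10, 9.39 and 9.90, against 9.62, 7.96 and 9.07 without antigen, and this was the highest difference of any of the 38 genes there (0.88 ± 0.25, adjusted p = 0.060).

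After transient antigen with FGK, 7 of 11 chaperones, 3 of 4 isomerases and 5 of 10 translocon genes were higher than without antigen in the fit with the block. In all, 18 of the 38 genes were higher and 0 lower, where 14% of all genes were called, 10.5% higher and 3.48% lower (1413 higher and 1113 lower genes under cyclic loess, in place of 1915 and 633). Median differences were 0.89 for chaperones, 1.11 for isomerases, 0.36 for stress genes, 0.17 for degradation genes and 0.70 for translocon genes, beside -0.01 for all genes. Among the 11247 genes brighter than the median probe set, the share called was 21.2%. Without the block 0 of 38 were called (12 at an unadjusted p under 0.05, beside 1904 of all 18193 genes), against 0.572% of all genes. Without the second no-antigen FGK array, the one with the lowest mean intensity, 8 of the 38 were called. Within replicate numbers 1 and 2 the medians were 0.86 and 0.87 for chaperones, 0.89 and 1.35 for isomerases and 0.41 and 0.96 for translocon genes. In number 2 the antigen and no-antigen arrays come from different runs of array numbers in the labels, here and in the other comparisons with no antigen. Cyclic loess lowered the no-block medians to 0.55 for chaperones, 0.78 for isomerases and 0.38 for translocon genes.

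Transient antigen with PBS left these genes uncalled. With the block, 0 of the 38 passed in transient against no antigen with PBS, where 2.89% of all 18193 genes passed (2.02% higher and 0.868% lower, or 294 higher and 293 lower genes under cyclic loess scaling in place of 367 and 158). At an unadjusted p under 0.05, limma gave 10 of the 38 with the block, beside 2744 of all genes, and 0 without it, beside 845. Without the block 0 of 38 were called, against 0.126% of all genes. The chaperones had a median difference of 0.01, the isomerases 0.09, the stress genes -0.02, the degradation genes 0.14 and the translocon genes 0.50, where all measured genes had 0.03. The translocon median stood at 0.26, 0.64 and 0.25 within replicate numbers 1, 2 and 3.

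Setting FGK against PBS after transient antigen gave 14 of the 38 genes higher and 0 lower with the block, where 10.5% of all genes were called, 7.59% higher and 2.92% lower (1315 higher and 805 lower genes under cyclic loess, in place of 1380 and 532). Among brighter genes 16.2% were called. The 14 were 7 of 11 chaperones (Hspa5, Hsp90b1, Calr, Canx, Sdf2l1, Creld2 and Manf), 3 of 4 isomerases (Pdia3, Pdia6 and P4hb), Atf6 and Xbp1 of the 8 stress genes, 0 of 5 degradation genes, and Ssr1 and Ssr2 of the 10 translocon genes. Median differences were 0.84, 0.92, 0.18, 0.09 and 0.24 in the same order of roles, beside -0.03 for all genes. The median of the translocon genes was 0.03 without the block and -0.01 under cyclic loess. Without the block 0 of 38 were called (8 at an unadjusted p under 0.05, beside 1691 of all 18193 genes), against 0.638% of all genes. The number called with the block was 6 without the first transient FGK array, and 8 without the second transient FGK array or without the first transient PBS array.

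The test of the difference itself, transient minus no antigen with FGK less the same with PBS, was called with the block for 8 genes: Hspa5 (1.37 ± 0.30, adjusted p = 0.014), Hsp90b1 (1.45 ± 0.32, 0.016), Sdf2l1 (1.19 ± 0.30, 0.031), Creld2 (1.21 ± 0.30, 0.030), Manf (1.30 ± 0.33, 0.035), Pdia3 (1.28 ± 0.34, 0.040), Pdia6 (1.54 ± 0.32, 0.011) and Xbp1 (1.01 ± 0.23, 0.022). Over all genes 3.69% were called, 3.09% higher and 0.605% lower (504 higher and 269 lower genes under cyclic loess, in place of 562 and 110). No translocon or degradation gene was called, and the values for Sec61a1 (0.37 ± 0.28) and Ssr2 (0.80 ± 0.33, adjusted p = 0.22) leave room for a difference. Without the block 0 of 38 and 0% of all genes were called (5 of the 38 at an unadjusted p under 0.05, beside 895 of all 18193 genes). The count of 8 was 1 without the second no-antigen FGK array, 0 without the first transient FGK array, and 3 without the second transient FGK array or the first transient PBS array. It was 5 without the first no-antigen PBS array or without transient PBS array 3. These comparisons share arrays with each other, so their calls are not separate evidence. In another Hspa5 probe set and another Pdia3 probe set, transient minus no antigen was similar with FGK and PBS. A further Hspa5 probe set and other probe sets of Hsp90b1 and Pdia6 kept the treatments apart.

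Under persistent antigen with FGK, 6 of 11 chaperones, 3 of 4 isomerases and 7 of 10 translocon genes were higher than without antigen in the fit with the block, and 1 chaperone was lower. With PBS these were 4 of 11 higher and 1 lower, 3 of 4 and 6 of 10. With FGK and the block 21 of the 38 genes were higher and 3 lower (Dnajb9, Ddit3 and Herpud1), where 16.4% of all genes were called, 10.9% higher and 5.5% lower (1671 higher and 1384 lower genes under cyclic loess, in place of 1985 and 1001). With PBS and the block 16 were higher and 1 lower (Dnajb9), where 16.7% of all genes were called, 9.93% higher and 6.79% lower. Among brighter genes the shares called were 24.8% and 25.4%. With FGK the median difference was 0.75 for chaperones, 1.17 for isomerases, 0.42 for stress genes, 0.02 for degradation genes and 0.74 for translocon genes. Within replicate numbers 1 and 2 the FGK medians were 0.62 and 0.97 for chaperones, 0.65 and 1.54 for isomerases and 0.46 and 1.13 for translocon genes, each larger in number 2, whose pair crosses runs. With PBS the medians were 0.45, 0.68, 0.01, -0.23 and 0.67. Within numbers 1, 2 and 3 they were 0.35, 0.18 and 0.63 for chaperones, 0.84, 0.65 and 0.47 for isomerases and 0.61, 0.66 and 0.48 for translocon genes. Without the block Manf alone was called with FGK, against 2.37% of all genes, and Atf6 alone with PBS, against 3.57%. Without the second no-antigen FGK array, the blocked count with FGK was 9. The test of the difference between FGK and PBS called 0 of 38 and 0% of all genes in both fits (at an unadjusted p under 0.05, 2 of the 38 and 667 of all 18193 genes with the block, 0 and 157 without it), and FGK minus PBS under persistent antigen likewise called 0 of 38 and 0% of all genes (at an unadjusted p under 0.05, 0 of the 38 in both fits, beside 484 of all genes with the block and 110 without it).

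Set against transient antigen, 11 of the 38 genes were higher and 3 lower under persistent antigen with PBS and the block, where 11.4% of all genes were called, 5.99% higher and 5.44% lower. The 11 were Hspa5, Hsp90b1, Dnajb11, Creld2, Manf, Pdia3, Pdia6, P4hb, Atf6, Xbp1 and Ssr1, and the lower genes were Dnajb9, Ddit3 and Edem1. Chaperones had a median of 0.54, isomerases 0.67 and translocon genes 0.29. Without the block 0 were called (6 at an unadjusted p under 0.05, beside 2043 of all 18193 genes), against 0.929% of all genes. The blocked count was 6 to 8 when any of the 6 arrays compared was left out, 6 of them without persistent PBS array 3. With FGK, persistent against transient antigen called 0 of the 38 in both fits (at an unadjusted p under 0.05, 1 of the 38 and 1112 of all genes with the block, 0 and 355 without it), where 0.077% of all genes were called with the block and 0.0055% without it. The widest differences there were -0.67 ± 0.23 for Hsp90b1 (adjusted p = 0.74) and 0.26 ± 0.18 for Spcs1 (adjusted p = 0.90). Without antigen, FGK against PBS called 0 of the 38 in both fits (at an unadjusted p under 0.05, 3 of the 38 and 965 of all genes with the block, 1 and 317 without it), where 0.0055% of all genes were called with the block and 0% without it.

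**Figure D3:**
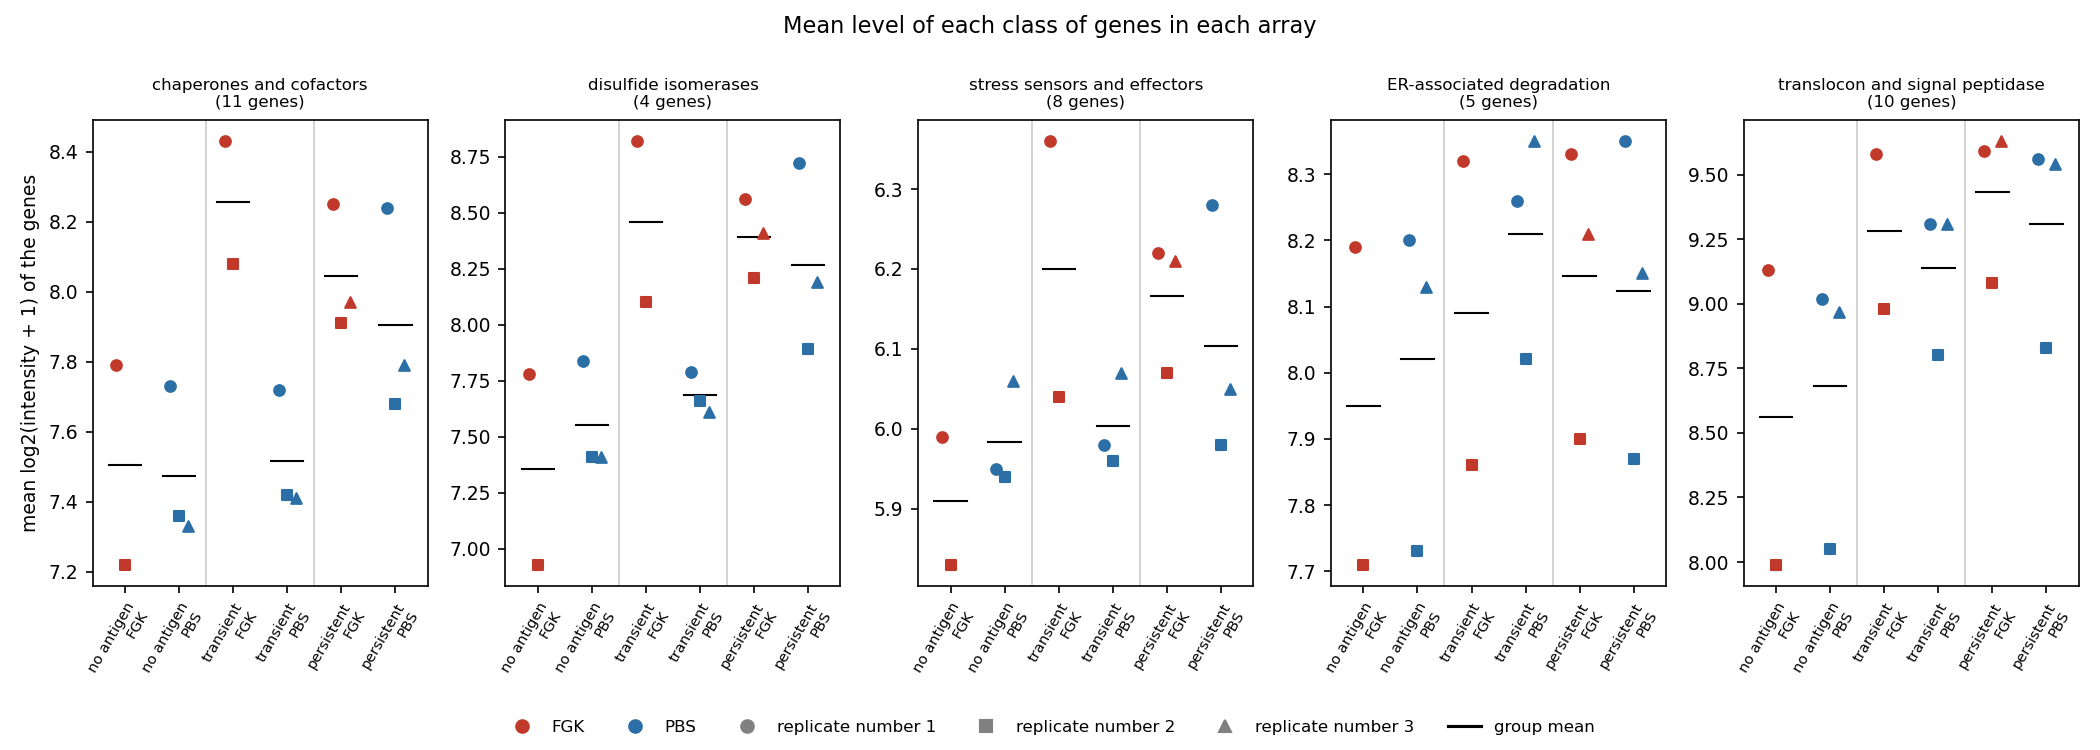
Mean log2(intensity + 1) over the genes of each role in each array, by antigen regime and treatment (FGK red, PBS blue, marker shape for the replicate number, bars for the group mean). For chaperones the 2 transient FGK arrays stand at 8.08 and 8.43, and the transient PBS arrays (7.41 to 7.72) overlap the no-antigen PBS arrays (7.33 to 7.73). For translocon and signal peptidase genes, replicate number 2 is the lowest in every group.

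The genes with the ER stress response element were compared with the rest. After transient antigen, FGK minus PBS was called for 6 of the 7 ER genes with an element (median 1.06) and for 5 of the 23 measured ER genes with a window and no exact element (median 0.17). Dnajc3, which holds an element, was at -0.02 ± 0.18, while Pdia3, P4hb, Xbp1, Sdf2l1 and Ssr1, which hold none in this window, were called. Another 30 genes hold an element, of which 13 were measured and 10 of them were above the median probe set, and 0 of the 13 were called (median 0.03, with 10.5% of all genes called). The 7 are 6 chaperones and 1 isomerase, and no stress, degradation or translocon gene with a window held the element. Among genes with a window, 6 of 9 chaperones and 1 of 4 isomerases held it. Element and role therefore overlap in large part, and they were not tested apart. Persistent minus no antigen with PBS was called for 3 of 7 genes with the element (median 0.45), and for 9 higher and 1 lower of 23 without it (median 0.40). With FGK it was called for 4 of 7 (median 0.75), and for 12 higher and 3 lower of 23 (median 0.61). CCAAT alone was found for 23 of the 31 genes (74.2%, against 41.1% of all genes with a window) and CCACG alone for 23 (74.2%, against 35.5%), counting matches inside the element. TGACGTGG and TGATGCAAT were found for 0 of the 31 (0.714% and 0.222% of all genes with a window), and TTGCATCA, which overlaps the reverse complement of TGATGCAAT, was found for Herpud1 (1.03% of all genes with a window).

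**Figure D4:**
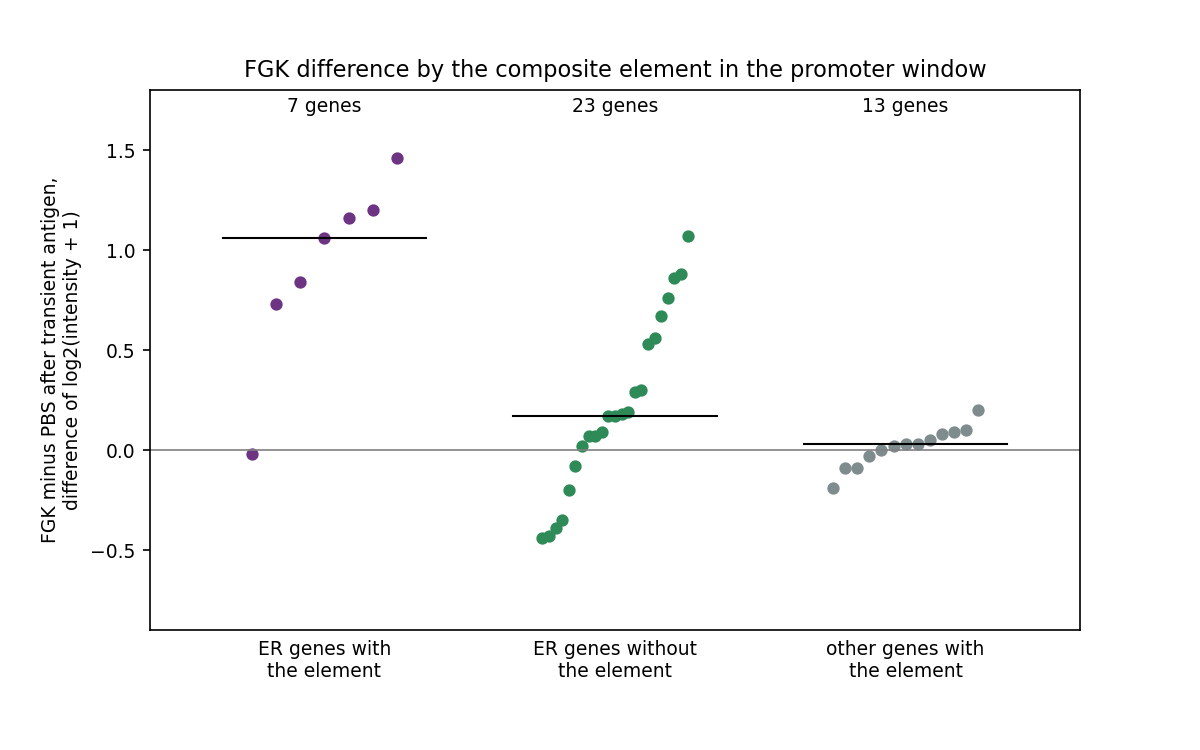
FGK minus PBS after transient antigen for ER genes with the composite element in the promoter window, ER genes without it and other genes with it, as differences of log2(intensity + 1) with the block. Points are genes and bars are medians. Of 7 ER genes with the element 6 lie at 0.73 or above, and the 13 other genes with it have a median of 0.03. All 7 are chaperones or isomerases, while the ER genes without it come from every role.

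Beyond the listed genes, 101 further genes of the same pathways were measured. With the block, 9 were higher and 1 lower for FGK against PBS after transient antigen (9.9%, beside 10.5% of all and 16.2% of brighter genes, median 0.08). Transient against no antigen gave 23 higher and 1 lower with FGK (23.8%, beside 14% of all and 21.2% of brighter genes) and 0 called with PBS (14 at an unadjusted p under 0.05 in limma, as were 2744 of all 18193 genes). Persistent against no antigen gave 21 higher with FGK (20.8%, beside 16.4% of all and 24.8% of brighter genes), and 22 higher and 1 lower with PBS (22.8%, beside 16.7% of all and 25.4% of brighter genes). The 3 shares against no antigen lie near those of brighter genes, and the 9.9% for FGK against PBS lies below that of brighter genes. Of the 15 N-glycosylation genes, 7 were higher in each of those 3 comparisons and 4 for FGK after transient antigen. The oligosaccharyltransferase subunits Rpn1 and Rpn2, which attach glycans to chains leaving the channel, were higher with FGK after transient antigen by 0.84 ± 0.18 (adjusted p = 0.0038) and 0.87 ± 0.21 (adjusted p = 0.0093), and Dpagt1, the enzyme that begins the glycan, by 1.0 ± 0.18 (adjusted p = 0.00097). Of 24 other folding and oxidation genes, the prolyl isomerase Fkbp2 was higher by 1.27 ± 0.24 (adjusted p = 0.0015) and the oxidase Ero1a by 0.69 ± 0.19 (adjusted p = 0.026), and Sdf2 was lower by -0.68 ± 0.19 (adjusted p = 0.027). Of 20 other degradation genes, Vcp, the ATPase that pulls chains from the membrane, and Ube2j2 were called (0.77 ± 0.23 and 0.67 ± 0.18), of 23 other stress regulators Cebpg (0.71 ± 0.19), and of 19 signal recognition and other translocation genes none. Of that last list, Srp19 (0.96 ± 0.17) and Emc7 (0.91 ± 0.18) were higher in persistent against no antigen with PBS.

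Some genes of the plasma cell list were called in these comparisons, but the list did not move as a whole. In the fit with the block, 5 of its 10 differences were above 0 for FGK minus PBS after transient antigen (median -0.0). For persistent minus no antigen with PBS, 4 of 10 were above 0 (median -0.04). With the block Prdm1 was higher with FGK after transient antigen (2.18 ± 0.42, adjusted p = 0.0020), and Irf4, Prdm1 and Txndc5, which T cells also express, were the 3 of 10 called higher in persistent against no antigen with PBS. The summed intensity of the 10 genes was 638 to 1782 in transient FGK arrays and 572 to 860 in transient PBS arrays. Over all arrays Jchain read 3.43 to 4.60, Tnfrsf17 2.81 to 3.30 and Eaf2 3.75 to 4.29. Above the median probe set (4.37) in every array were Sdc1 (4.56 to 5.37), Derl3 (4.44 to 5.69), Fkbp11 (5.11 to 6.07), Txndc5 (7.02 to 8.59) and Irf4 (6.14 to 10.12). The part of the plasma cell genes in the result was not tested. T cell identity genes summed to 8737 to 9748 in transient FGK arrays and 11549 to 12914 in transient PBS arrays. For FGK minus PBS after transient antigen, 0 of these 11 genes had a difference above 0 (median -0.51 with the block). Cd5 was the 1 gene called lower there (-0.76 ± 0.19, adjusted p = 0.012). Of the 11 B cell genes, Cd22 alone was called in the same comparison (higher by 0.72 ± 0.22, adjusted p = 0.038). Only 2 of the 11 differences were above 0, and their median was -0.09. The summed level, which includes Cd22, was 417 to 496 in transient FGK arrays and 351 to 465 in transient PBS arrays.

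The choice of probe set bore on single genes. Of the 87 pairs of gene and comparison called with the block, 55 had another probe set above the median, and these gave 91 further differences. Of the 91, 14 had the opposite sign, in Hspa5, Xbp1, Atf4, Sel1l, Derl2, Sec61a1 and Spcs1. For Hspa5 a second probe set gave 1.14 for FGK minus PBS after transient antigen, against 1.06, and another gave 0.19.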

How the data were processed

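RNA from sorted CD4+CD90.1+ T cells was amplified in 2 rounds, labelled with biotin and hybridised to 16 expression arrays, per the labels' protocols. The deposited values are intensities per probe set on a linear scale, summarised with RMA per the submitters' processing notes, with no version or further settings given in the sources used here. Of 45101 probe sets, 34945 list 1 gene symbol, 932 several, 9160 none, and 64 are controls. Intensities were taken as log2(intensity + 1), with 1 probe set per gene (the highest mean), which left 18193 genes. Array medians of 18.2 to 21.3 and 2 or 3 arrays per group limit the precision.

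All 16 arrays entered 1 fit of 6 group means in limma 3.58.1 (R 4.3.3) with an intensity trend and Benjamini-Hochberg adjustment over all genes. Every adjusted p in the text is from limma. A second fit added the replicate number as a block. Arrays of the same number deviated together in each of the 36 pairs across groups (lowest correlation 0.481), and for 16 of 16 arrays the closest other array had the same number, so the numbers were taken to pair the arrays. The labels do not say what a number marks. By the runs of consecutive array numbers in the labels, numbers 1 and 3 each hold 1 run, while number 2 holds no-antigen arrays of 1 run and antigen arrays of another, so its differences from no antigen cross runs. The fits were tested on simulated data. Alternatives were the runs as a block, the compared groups only, no trend, no dim genes, cyclic loess, averaging over probe sets, a pseudocount of 16 and leaving out each array. Settings that combine the block with another choice, and replicate numbers 1 and 3 only, were chosen after seeing the data.

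The genes and lists were chosen with earlier results of these data known. Values in every array are given for the 20 genes with the smallest adjusted p in the fit with the block among those called in either fit, and for 4 more stress genes (Atf4, Ddit3, Ern1 and Eif2ak3). Of the other pathway genes, at most the 4 largest called per list are named. Promoters are RefSeq windows on GRCm38.p6. Tables and figures were made with Python 3.11.15, pandas 2.3.3, numpy 2.4.6 and matplotlib 3.10.9. Protein sequences were not used here.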

Additional observations from a re-analysis of the deposited data

Results flagged for a closer look

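For 8 of the 38 ER genes the response to transient antigen differed between FGK and PBS in the test of that difference, fitted in limma with the replicate number as a block. The values, on the log2(intensity + 1) scale, were 1.54 for Pdia6, 1.45 for Hsp90b1, 1.37 for Hspa5, 1.30 for Manf, 1.28 for Pdia3, 1.21 for Creld2, 1.19 for Sdf2l1 and 1.01 for Xbp1, with adjusted p between 0.011 and 0.040. Each was positive in 2 of 2 replicate numbers for the probe set used. The genes were picked by this test on the same arrays, so that count is not separate support. Other probe sets above the median gave transient minus no antigen as follows, with FGK and then PBS. Another Hspa5 probe set gave -0.0 and 0.19, and another of Pdia3 gave 0.36 and 0.23. A further Hspa5 probe set gave 1.15 and -0.02, another of Hsp90b1 1.09 and 0.12, and another of Pdia6 0.65 and -0.07. Without the block the test of FGK against PBS responses called 0 of the 38, with 5 at an unadjusted p under 0.05.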

How the results depend on the processing

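The number of ER genes called depended mainly on the replicate number. With the replicate block it was 24 and 17 for persistent against no antigen (FGK and PBS), where it was 1 and 1 without it, and 14 for persistent against transient antigen with PBS, 18 for transient against no antigen with FGK, 14 for FGK against PBS after transient antigen and 8 for the interaction, where it was 0 without it. A block of the 4 runs of array numbers gave 19, 14, 18, 15, 15 and 9 in the same order. Persistent against no antigen (FGK, then PBS) gave 0 and 0 from the compared groups alone, 3 and 3 without the trend, 4 and 3 without dim genes, 3 and 2 with the mean of probe sets, 4 and 3 with cyclic loess, and 0 and 5 from replicate numbers 1 and 3. Single calls appeared for FGK against PBS after transient antigen without the trend, without dim genes, with the mean of probe sets and with cyclic loess (1 each), for transient against no antigen with FGK without dim genes and with cyclic loess (1 each), and for persistent against transient antigen with PBS under cyclic loess (1). Replicate numbers 1 and 3 alone gave 6 for FGK after transient antigen without the block, and with it 12 for persistent against no antigen with FGK and 4 for the interaction, but this leaves 1 array each in no-antigen FGK and transient FGK, assumed to vary like the other groups. The mean of probe sets with the block gave 1 for transient against no antigen with PBS. Dim genes removed from the test reduce the number of tests, and the other causes were not tested.

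Leaving out 1 array at a time without the block gave 0 to 6 for persistent and 0 to 2 for transient against no antigen with FGK, 0 to 2 and 0 to 0 with PBS, and 0 to 1 for FGK after transient antigen. With the block the ranges were 9 to 25, 8 to 21, 13 to 20, 0 to 1 and 6 to 15 in that order, 6 to 15 for persistent against transient antigen with PBS and 0 to 9 for the interaction. Differences that turned round without the block were Hsp90b1 in persistent against transient antigen with PBS (-0.07 without transient PBS array 3, -0.17 without persistent PBS array 2, up to 1.62) and in transient against no antigen with FGK (-0.17 without no-antigen FGK array 1, -0.05 without transient FGK array 2, up to 2.38). Without no-antigen FGK array 2, Canx was at -0.10 for persistent and -0.13 for transient against no antigen with FGK, and Spcs2 at -0.08 for transient, where their highest values were 1.93, 1.91 and 1.53. Without transient FGK array 1, FGK minus PBS after transient antigen was -0.06 for Canx and -0.07 for Ssr2, where their highest values were 1.18 and 1.31. Leaving out an array from these groups unbalances the replicate numbers, which the fit without the block does not carry.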
